A study of Mus musculus with 4 samples.

Results

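The 9 genes described here code for enzymes of the route from acetyl-CoA to squalene, with Ggps1 on a side branch: Acat2, Hmgcs1, Mvk, Pmvk, Mvd, Idi1, Fdps, Ggps1 and Fdft1. They were taken as every probe other than controls that the array files give one of these names, which gave 15 of the 55681 probes on each array and 9 of the 34844 names. Acat2, Mvd, Idi1 and Fdps had 1 probe each, Hmgcs1, Mvk, Pmvk and Fdft1 had 2, and Ggps1 had 3. The 4 samples are total RNA from primary hepatocytes of mice of the strain labelled bl6, 2 in each group, with each RNA on its own Agilent array.

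All 4 cultures were grown in 10% fetal bovine serum and then kept overnight in 0.5% serum with 5 µM simvastatin and 100 µM mevalonic acid. The control cultures received DMSO, and the treated ones 1 µM GW3965, a compound that activates the liver X receptors (LXR). Their treatment label is worded "LXR against GW3965", read here as GW3965 acting on LXR. Since both groups carried the statin and the mevalonate, the levels below are those of cells under both, and no group without them is compared. The labels distinguish the samples of a group by the letters a and b and do not give the animals or cultures behind them. P-values therefore measure the spread between these samples, which may be technical. In RNA from a whole culture, fewer cells of a type and less RNA per cell cannot be told apart.

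The mevalonate pathway builds sterols and other isoprenoids from acetyl-CoA. Acetoacetyl-CoA is formed by a thiolase and extended to HMG-CoA, which is reduced to mevalonate, the step that statins block. The genes described here do not include one for that step. Mevalonate is then phosphorylated and decarboxylated to isoprene units, which are joined into farnesyl diphosphate, the branch point between squalene with the sterols and the prenyl groups, dolichol, ubiquinone and haem A. In liver cells the genes of these enzymes are classic targets of SREBP-2, a transcription factor that is released when sterols in the endoplasmic reticulum run low and that acts at promoters together with NF-Y. LXR responds to oxysterols and turns on genes of sterol export and of fatty acid synthesis.

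The stretches before the start sites of 4 members are printed because the members are textbook SREBP-2 targets and their promoters differ in the letters looked for. RefSeq's promoter table (GRCm38.p6) had an entry for 7 of the 9 genes, in 8 promoters of 300 bases, from 250 before to 50 after the start; Fdps and Fdft1 had none. The motifs were searched on both strands: the core of the sterol regulatory element as TCACNCCAC, the NF-Y box as CCAAT, and the LXR element as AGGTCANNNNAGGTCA, and no matches overlapped in the members. Each line gives the 250 bases upstream of the start, 5′ to 3′ on the gene's strand. Capitals mark the motif letters, and an NF-Y box on the opposite strand reads ATTGG.

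Hmgcs1, chr13:119690101-119690350, plus strand: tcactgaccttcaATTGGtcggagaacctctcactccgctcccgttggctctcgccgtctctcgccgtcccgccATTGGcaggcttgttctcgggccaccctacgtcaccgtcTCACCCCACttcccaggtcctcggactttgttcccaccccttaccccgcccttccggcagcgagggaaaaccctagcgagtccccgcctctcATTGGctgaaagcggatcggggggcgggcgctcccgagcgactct

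Mvk, chr5:114444019-114444268, plus strand: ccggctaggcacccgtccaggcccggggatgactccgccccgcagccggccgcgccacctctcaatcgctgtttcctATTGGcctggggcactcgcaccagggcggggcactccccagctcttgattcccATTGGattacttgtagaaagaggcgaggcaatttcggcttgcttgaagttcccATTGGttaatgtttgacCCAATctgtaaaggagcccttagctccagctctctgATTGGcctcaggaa

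Idi1, chr13:8885356-8885605, plus strand: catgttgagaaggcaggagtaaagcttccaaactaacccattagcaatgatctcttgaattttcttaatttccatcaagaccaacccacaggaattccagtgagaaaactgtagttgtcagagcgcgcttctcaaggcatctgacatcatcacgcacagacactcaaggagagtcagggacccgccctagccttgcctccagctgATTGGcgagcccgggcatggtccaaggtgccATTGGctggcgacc

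Acat2, chr17:12960726-12960975, minus strand: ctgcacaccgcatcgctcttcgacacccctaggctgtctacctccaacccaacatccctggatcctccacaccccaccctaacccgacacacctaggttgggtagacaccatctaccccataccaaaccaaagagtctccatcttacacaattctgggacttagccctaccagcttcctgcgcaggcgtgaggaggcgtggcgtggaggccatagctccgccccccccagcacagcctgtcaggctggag

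The sterol element core was found in 1 of the 7 genes and 1 of the 8 promoters, that of Hmgcs1, as TCACCCCAC starting at base -137 from the start. Over all 32851 promoters of this length it occurred in 1.24%. The nearest NF-Y box in Hmgcs1 lies 34 bases from it. NF-Y boxes were found in 6 of the 7 genes, and in 6 of their 8 promoters, against 37.4% of all promoters. Mvk held 5, Hmgcs1 held 4 (1 of them after the start), Ggps1 held 3, Mvd and Idi1 held 2 each and Pmvk held 1, in the first of its 2 promoters. Acat2 held 0. The LXR element occurred in 0 of the 7 genes and in 0.0152% of all promoters. These are matches of letters, and binding was not measured.

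Levels are given as the log2 of the scanner's processed signal minus the 75th percentile of the same array, so that 0 stands for that percentile. The 35479 probes tested are those that the scanner software called well above background on each array of 1 group or of both. All 15 member probes were well above background on 4 of 4 arrays, and 0 spots were saturated. The brightest probe of each gene, which stands for the gene below, was above 0 on all 4 arrays for 9 of 9 genes. Probes differ in how well they bind, so the levels of different genes are not ranked here. Differences are GW3965 minus DMSO with their SE from limma, fitted over all 35479 probes with Benjamini-Hochberg adjustment.

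In a fit that left the replicate letters out, none of the 9 genes differed between GW3965 and DMSO beyond the spread between the arrays. That spread includes the gaps between replicates a and b. The adjusted limma p was under 0.05 for 0 of the 15 member probes and for 0% of all probes tested. The unadjusted p was under 0.05 for 0 of the 15, against 365 of all probes (1.03%). The lowest unadjusted p of a member was 0.260, for Mvd, and every member's adjusted p rounded to 1.00. The gene differences ran from -0.11 for Mvk to 0.42 for Pmvk, with a median of 0.060, and the median over all probes was 0.0011. The mean was higher with GW3965 in 7 of 9 genes, where 48.5% of all genes were higher. That count depends on where 0 lies: centring arrays on their median moved all members by the same small amount down, which put Acat2 and Ggps1 below 0, spike-in scaling moved them all up, which put Mvk and Idi1 above 0, and quantile normalization put Idi1 above 0. Without Acat2, whose arrays spread far apart, the 95% intervals of the other 8 genes all lie between 0.537-fold and 2.55-fold. With 2 arrays a group, an exact permutation test of a single gene could not go below p = 0.333.

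**Figure D1:**
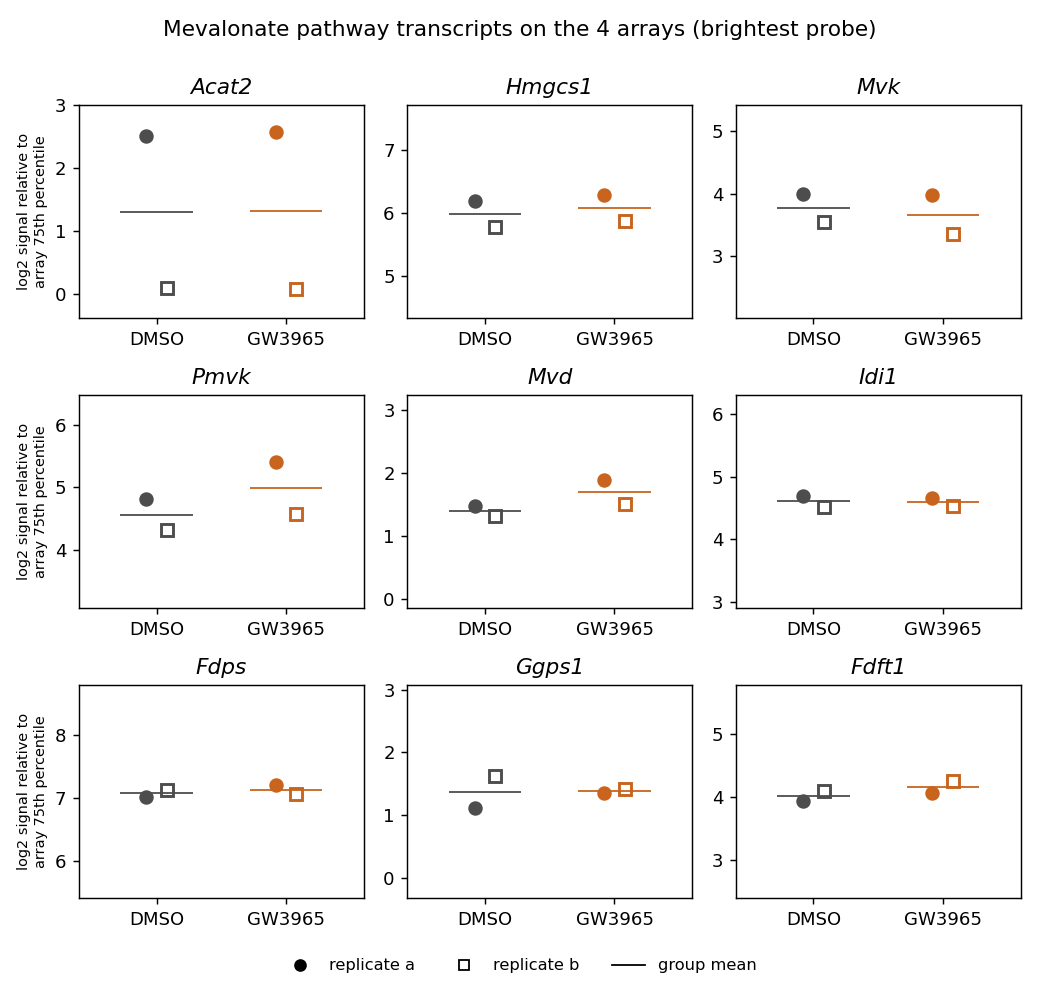
Level of each of the 9 genes on every array, as log2 signal relative to the array's 75th percentile (brightest probe; filled circles replicate a, open squares replicate b, lines group means; each panel spans the same height). Acat2 splits by replicate, near 2.5 on both a arrays and near 0.1 on both b arrays, and Mvd is the gene whose GW3965 arrays both lie above the DMSO ones.

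Acat2 codes for the cytosolic acetyl-CoA acetyltransferase, the thiolase that makes acetoacetyl-CoA (a different enzyme from the sterol O-acyltransferase that is also called ACAT2). Its probe lies at chr17:13136482-13136541 on the minus strand of mm9 and begins with gtcatcaagggctccagagtgaacagcatt. Its level was 2.52 and 0.083 in DMSO replicates a and b, and 2.57 and 0.070 in GW3965 replicates a and b. Each group thus held 1 high and 1 low array, and the groups overlapped. The difference was 0.022 ± 1.14 (SE, n = 2 per group; limma adjusted p = 1.00), with a 95% interval from -2.92 to 2.97. Compared within a letter, GW3965 minus DMSO was 0.057 for the a arrays and -0.013 for the b arrays.

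Hmgcs1 codes for the cytosolic synthase that condenses acetoacetyl-CoA with acetyl-CoA to HMG-CoA. Its brightest probe (chr13_random:114793-114852, minus strand) read 6.19 and 5.77 in DMSO a and b, and 6.29 and 5.87 in GW3965 a and b. The a array was the higher in each group, and the groups overlapped. The difference was 0.096 ± 0.26 (interval -0.59 to 0.78). A second probe on the same unplaced sequence (chr13_random:114558-114617) was dim, from -3.82 to -3.42 on the 4 arrays, and differed by -0.076 ± 0.24. The files name it Hmgcs1 but describe its clone by another gene, so its value may not be that of Hmgcs1.

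Mvk codes for mevalonate kinase, the first enzyme to act on the mevalonate that was added to both groups. Its brightest probe (chr5:114910540-114910599, plus strand) read 3.99 and 3.55 in DMSO a and b, and 3.97 and 3.36 in GW3965 a and b. The ranges of the groups overlapped, with the b arrays lower in each. The difference was -0.11 ± 0.30 (interval -0.90 to 0.68). The second Mvk probe went the other way by its mean, at 0.13 ± 0.28, so that the gene's direction rests on the probe.

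Pmvk codes for phosphomevalonate kinase, which adds the second phosphate. Its brightest probe (chr3:89272867-89272926, plus strand) read 4.81 and 4.32 in DMSO a and b, and 5.40 and 4.57 in GW3965 a and b. The lower GW3965 array fell between the DMSO arrays, so the groups overlapped. The difference of 0.42 ± 0.36, or 1.34-fold, was the largest among the 9 genes by its size, with an interval from -0.51 to 1.35 (limma adjusted p = 1.00). Its second probe gave 0.43 ± 0.37. Both probes were higher with GW3965 within each letter, by 0.59 and 0.56 for a and by 0.25 and 0.29 for b.

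Mvd codes for the decarboxylase that yields isopentenyl diphosphate. Its single probe (chr8:124957750-124957809, minus strand) read 1.48 and 1.32 in DMSO a and b, and 1.89 and 1.50 in GW3965 a and b. The GW3965 arrays were both higher than the DMSO arrays, and GW3965 b stood next to DMSO a. Such a separation was seen in 1 of 9 member genes and for 9.41% of all genes. The difference was 0.29 ± 0.23, or 1.22-fold, with an interval from -0.30 to 0.89 (limma adjusted p = 1.00).

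Idi1 codes for the isomerase that makes the allylic isomer of isopentenyl diphosphate. Its probe (chr13:8891524-8891583, plus strand) read 4.70 and 4.52 in DMSO a and b, and 4.67 and 4.54 in GW3965 a and b. The arrays lay close together and the groups overlapped. The difference was -0.0045 ± 0.199 with an interval from -0.52 to 0.51, that is from 0.698-fold to 1.42-fold.

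Fdps codes for the synthase that builds farnesyl diphosphate. Its probe (chr3:88897549-88897608, minus strand) read 7.02 and 7.13 in DMSO a and b, and 7.20 and 7.07 in GW3965 a and b. Its SE was the smallest of the 9 genes, and the groups overlapped. The difference was 0.060 ± 0.19 (interval -0.44 to 0.56).

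Ggps1 codes for the synthase that lengthens farnesyl to geranylgeranyl diphosphate, on the branch to prenylated proteins. Its brightest probe (chr13:14144710-14144769, minus strand) read 1.12 and 1.62 in DMSO a and b, and 1.35 and 1.41 in GW3965 a and b. Both GW3965 arrays fell between the DMSO arrays. The difference was 0.015 ± 0.25 (interval -0.62 to 0.65). The other Ggps1 probes differed by -0.12 ± 0.22 and 0.036 ± 0.23, and on all 3 probes DMSO replicate a was the lowest array and DMSO replicate b the highest.

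Fdft1 codes for squalene synthase, which commits farnesyl diphosphate to sterols. Its brightest probe maps to chr14:63765750-63769990 on the minus strand. The 60 bases of the probe thus cover a span of 4241 bases, so the probe joins parts that lie apart in the genome, as a spliced transcript does. It is printed for this reason.

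Fdft1 probe: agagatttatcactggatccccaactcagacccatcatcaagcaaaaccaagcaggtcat

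This probe read 3.94 and 4.09 in DMSO a and b, and 4.07 and 4.25 in GW3965 a and b. GW3965 was higher within each letter, by 0.12 for a and 0.16 for b, while the ranges of the groups overlapped. The difference was 0.14 ± 0.20 (interval -0.38 to 0.66). The second Fdft1 probe, at chr14:63764562-63764621, was dim at -4.26 to -4.04 and differed by 0.074 ± 0.20.

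**Figure D2:**
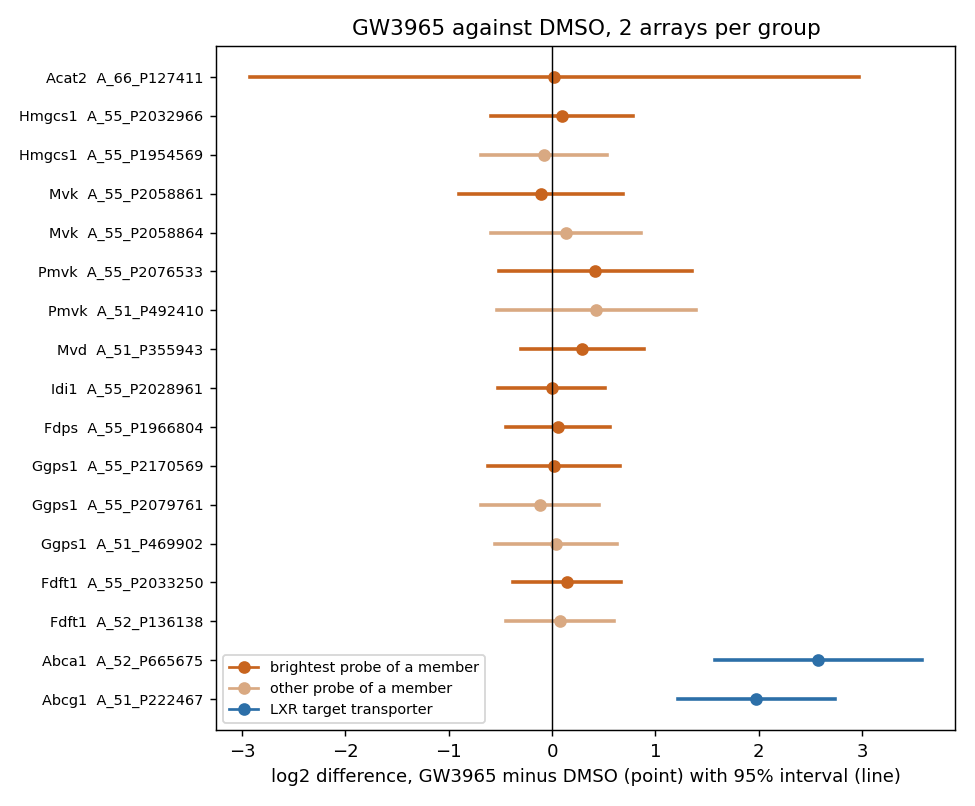
Log2 difference, GW3965 minus DMSO, for the 15 member probes and for the transporters Abca1 and Abcg1 (points) with 95% intervals from limma (lines; 2 arrays per group). All 15 member intervals cross 0 and that of Acat2 is the widest, while Abca1 at 2.58 and Abcg1 at 1.98 have intervals above 0.

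The LXR targets on the same arrays show what a difference of this agonist looked like. Abca1, the sterol exporter, read 1.46 and 0.55 in DMSO a and b, and 3.31 and 3.85 in GW3965 a and b, without overlap. Its difference was 2.58 ± 0.39, or 5.96-fold (limma unadjusted p = 0.00128, adjusted p = 1.00). Abcg1, a second exporter, differed by 1.98 ± 0.29, and Lpcat3, a phospholipid remodelling enzyme and LXR target, by 1.05 ± 0.21. All 3 had an unadjusted p under 0.05 and 0 of 3 passed after adjustment, as no probe did. The lower bounds of the intervals were 2.98-fold for Abca1, 2.32-fold for Abcg1 and 1.41-fold for Lpcat3, beside upper bounds of up to 2.55-fold, that of Pmvk, in the 8 members other than Acat2. A difference of the size of Lpcat3, 2.07-fold, thus lies inside the Pmvk interval.

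The other genes of the pathway were read from lists of background knowledge. The 12 genes from squalene to cholesterol were all measured, with 0 of 12 passing in either direction and a median difference of 0.0086. Of them 6 were higher and 6 lower by their means. The 3 with the lowest p were Dhcr7, the last reductase of the pathway, at 0.38 ± 0.32, Lss, lanosterol synthase, at 0.19 ± 0.21, and Nsdhl, a sterol dehydrogenase, at 0.24 ± 0.34. The 13 genes of the non-sterol branches had 0 of 13 passing and a median of -0.067. Fntb, the beta subunit of protein farnesyltransferase, was at 0.31 ± 0.22 with its GW3965 arrays above, Rabggta, of the enzyme that prenylates Rab proteins, at 0.15 ± 0.19, and Icmt, which methylates prenylated proteins, at -0.10 ± 0.20.

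Of the 8 genes of acetyl-CoA supply and the members' paralogs, 0 of 8 passed, with a median of 0.046. Idi2, the paralog of Idi1, was dim and well above background on 3 of 4 arrays, so its levels of -5.60 and -4.93 in DMSO a and b, and -4.82 and -4.34 in GW3965 a and b, give no exact difference. Slc25a1, the mitochondrial citrate carrier, was at 0.25 ± 0.23, and Acss2, cytosolic acetyl-CoA synthetase, at 0.40 ± 0.42. Acat1, the mitochondrial thiolase related to Acat2, was at -0.040 ± 0.19. Of 7 genes that control SREBP, 0 of 7 passed and the median was 0.057. Srebf1, which codes for SREBP-1 and is itself an LXR target, read -0.96 and -0.72 in DMSO and 0.37 and 0.43 in GW3965, a difference of 1.24 ± 0.20 (limma unadjusted p = 0.00184, adjusted p = 1.00). Srebf2, which codes for SREBP-2, was at 0.23 ± 0.32 with overlapping groups. Insig1, which holds SREBP in the endoplasmic reticulum, was at 0.54 ± 0.26 with its GW3965 arrays above (limma adjusted p = 1.00).

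**Figure D3:**
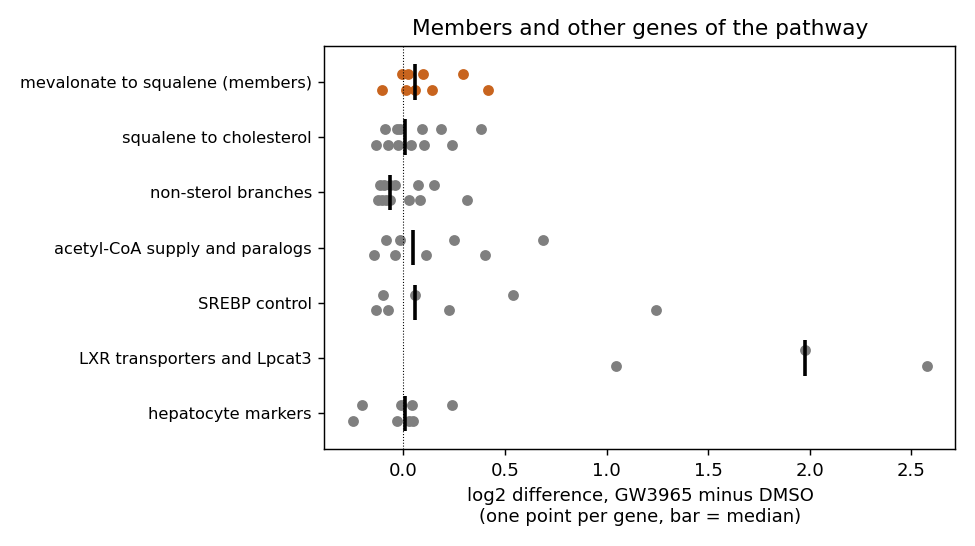
Log2 difference, GW3965 minus DMSO, of the 9 members and of other gene lists (1 point per gene, its brightest probe; bars are medians). The members' points lie between -0.11 and 0.42 around a median of 0.060, while the LXR transporters with Lpcat3 lie between 1.05 and 2.58 and Srebf1 stands at 1.24 among the genes that control SREBP.

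The mean letter gap over both groups was larger in size than the treatment difference in Acat2, Hmgcs1, Mvk, Pmvk, Idi1, Ggps1 and Fdft1. It was smaller in Mvd and in Fdps, whose gaps had opposite signs. For Pmvk the DMSO gap of -0.49 was smaller in size than the treatment difference of 0.59 on the a arrays. In 6 of 9 genes the b array was below the a array in both groups, where 31.8% of all genes were. In Acat2, Hmgcs1, Mvk and Pmvk it was lower by over 0.4 in both groups (4 of 9 genes, against 9.53% of all genes). Ggps1 and Fdft1 were higher on b in both groups, and Fdps was higher on b in DMSO and lower in GW3965. Ordered by the steps of the pathway, the 6 members from Acat2 to Idi1 were the ones lower on b in each group. Their gaps ran from -2.50 to -0.13, and the order was noticed after the values were seen. The SD of the gaps over all probes was 0.55 in each group, larger than the gaps of Hmgcs1, Mvd and Idi1. The dim second Hmgcs1 probe had gaps of 0.30 in DMSO and -0.33 in GW3965. The labels do not say what the letters stand for. The a arrays were at slide positions 1 and 2 and the b arrays at 3 and 4, all on 1 slide read in 1 scan, so position and letter cannot be told apart.

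The letter gap of Acat2 was -2.43 in DMSO and -2.50 in GW3965, on average 5.54-fold between a and b. It was the 40th lowest of 35479 probes in this respect, and 0.209% of probes were lower on b by over 2 in both groups. Its unscaled signals were 3118 and 641 in DMSO a and b, and 3034 and 707 in GW3965 a and b, so the gap is there before scaling and all 4 arrays were well above background. The next gene on that stretch, its close paralog Acat3, had a gap of -2.04 and -1.92, with levels of 3.95 and 1.92 in DMSO and 3.88 and 1.96 in GW3965, and ranked 90th. Its probe lies 18312 bases away at chr17:13118170-13118229. The probe is printed, with the start of the Acat2 probe above, because the longest run of bases the probes share is 5. Neither probe was compared with the transcript of the other gene. Whether the Acat3 probe also binds Acat2 RNA was therefore not tested.

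Acat3 probe: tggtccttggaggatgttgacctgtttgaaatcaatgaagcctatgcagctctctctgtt

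In the other named genes within 100000 bases the gaps ran from -0.77 to 0.54. Tcp1, a chaperonin subunit gene, read higher on b by 0.49 and 0.54, and the brightest probe of Wtap, of the RNA methylation complex, by 0.21 and 0.074. The Wtap probes disagreed: another was lower on b, with gaps of -0.77 and -0.32, and the dimmest had gaps of 0.13 and -0.33. Mrpl18, of the mitochondrial ribosome, was lower on b by gaps of -0.21 and -0.29, and Sod2, mitochondrial superoxide dismutase, by gaps of -0.54 and -0.61. The gap was thus large on the probes of the thiolase pair and smaller or opposite in the genes around them.

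Markers of cell types differed between the letters too. All 8 hepatocyte markers were detected, and 8 of 8 were lower on b in both groups, with median gaps of -0.89 and -0.96. Their summed level, as log2, was 10.9 and 10.5 in DMSO a and b, and 11.0 and 10.3 in GW3965 a and b. All 6 macrophage and leukocyte markers were lower on b in both groups as well, with summed levels of 5.50 and 4.77, and 5.69 and 4.93. The summed endothelial markers (5 of 5 detected) ran from 5.00 to 5.38, those of stellate cells and fibroblasts (4 of 5; Lrat was not well above background) from 2.45 to 3.14, and those of cholangiocytes (3 of 4; Krt7 was not) from 1.78 to 3.17, each sum lowest on an a array and highest on a b array. The members of these lists differed among themselves. Stab2 was higher on b by 1.64 and 1.35 and Krt19 by 2.72 and 2.35, while Kdr, with gaps of -0.34 and -0.41, and Sox9, with gaps of -0.60 and -0.40, were lower on b in both groups, and Tek and Pdgfrb were opposed. Hepatocyte markers were thus present on all 4 arrays, beside transcripts of other liver cells. Their part in the members' letter gaps was not tested.

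**Figure D4:**
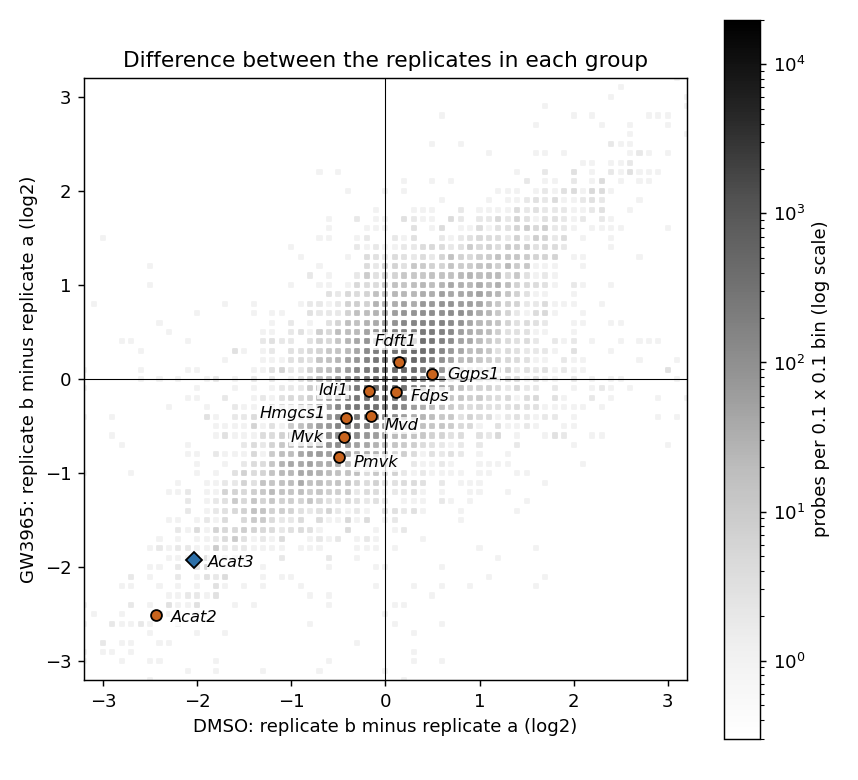
Replicate b minus replicate a, in log2, in DMSO (x axis) and GW3965 (y axis) for all probes tested (grey squares, shaded by the number of probes on a log scale; probes beyond the axes are not drawn), the 9 members (orange) and Acat3 (blue). Acat2 at -2.43 and -2.50 and Acat3 at -2.04 and -1.92 lie far out at lower left. The other members lie nearer the centre, with Hmgcs1, Mvk and Pmvk lower on b by over 0.4 in both groups.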

How the data were processed

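Per the file headers, the authors deposited spot intensity on a linear scale, background-corrected by Feature Extraction 10.7.3.1, for a design on mm9; version 11.5.1.11 stands in the submitters' processing notes. The deposited value table holds the same intensity (largest difference 0). Each array had 59305 spots other than controls, 62.5% to 69.1% of probes were well above background, and 9 probes were dropped for outlier spots. Log2 values were averaged over a probe's spots and scaled to the array's 75th percentile. Groups were compared with limma 3.58.1 (R 4.3.3) on 4 arrays, 2-sided, without a block. The procedure was tested on simulated arrays that had no letter gap and whose changes were larger than the members' differences. Arrays limit the precision by their number. Figures used matplotlib 3.10.9.

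The members and lists were chosen with earlier results of these data known. Named genes were all members, the 3 of each pathway list with the lowest p, set paralogs, regulators and LXR targets, and the 5 genes of most like pattern. Of the genes so named, 1 is not reported here. Positions in exons or untranslated regions are not given, as no mm9 annotation was used here. Alternatives covered scaling, background correction, filters, variance models, probe choice, the threshold, the replicate block and each array left out.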

Additional observations from a re-analysis of the deposited data

How the results depend on the processing

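The count of member probes that passed was 0 under every alternative run, and the member median (0.060) moved by less than its SD between replicates (0.189). It was 0.0091 with median centring, 0.18 with spike-in scaling, and -0.0072 to 0.20 with 1 array left out. Over all probes, 0 passed (365 at an unadjusted p under 0.05), against 69 (46 higher, 23 lower) with spike-in scaling, where the median over all probes was itself 0.12, the reference for a change there, and the limma prior had infinite degrees of freedom. With the replicate block 16 passed (10 higher, 6 lower; 1957 at an unadjusted p under 0.05), and with 1 array left out 0 to 1, the 1 without DMSO replicate b. Under the block, 2 member probes, both of Pmvk, had an unadjusted p under 0.05 (limma, adjusted p = 0.876 and 0.829). The Acat2 difference was 0.022 there too, with an SE of 0.13. The b minus a gaps of both groups correlated at 0.69 across probes, but the letters are 2 pairs that the labels do not explain, so the block is not used for the report. The reported fit therefore counts these gaps as spread between arrays, which gave Acat2 its SE of 1.14. At an unadjusted p under 0.05, 1072 probes came without a filter, 149 with the filter on all arrays and 77 with normexp.

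Small differences turned sign. Median centring and spike-in scaling add 1 constant to every probe, so their turns follow from that shift (the median over all probes was -0.049 with centring); the cause of the others was not tested. Idi1 was 0.025 with quantile normalization, 0.11 with spike-in scaling and 0.0088 with normexp. Mvk was 0.013 with spike-in scaling and 0.014 with the mean of its probes. With median centring Acat2 was -0.028, Ggps1 -0.036 and its probe A_51_P469902 -0.015; with the mean of its probes Ggps1 was -0.022. With spike-in scaling the second Hmgcs1 probe was 0.043 and Ggps1 probe A_55_P2079761 was 0.0036. With each array left out in turn, where the lone array is assumed to vary like the other group, Acat2 ran from -1.23 to 1.27, Hmgcs1 from -0.11 to 0.30, Mvk from -0.41 to 0.20, Idi1 from -0.093 to 0.084, Fdps from -0.0072 to 0.13 and Ggps1 from -0.23 to 0.26. The other probes ran from -0.24 to 0.091 for Hmgcs1, from -0.11 to 0.38 for Mvk, from -0.038 to 0.19 for Fdft1, and from -0.17 to 0.24 (A_51_P469902) and -0.30 to 0.065 (A_55_P2079761) for Ggps1. Pmvk (0.0060 to 0.83), Mvd (0.099 to 0.49) and Fdft1 (0.050 to 0.23) kept their sign in those fits.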

Other observations

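Mvk and Ggps1 share a start region with a gene on the opposite strand. The start of Mvk lies 242 bases from that of Mmab, which codes for an enzyme of cobalamin metabolism, and Mmab read 0.94 and 0.72 in DMSO a and b, and 1.14 and 0.63 in GW3965 a and b. Its difference was 0.059 ± 0.26 (limma adjusted p = 1.00), and the groups overlapped. The start of Ggps1 lies 296 bases from that of Arid4b, a chromatin factor gene, which read -0.30 and -0.46 in DMSO, and -0.64 and -0.54 in GW3965. Both GW3965 arrays lay below both DMSO arrays for Arid4b, as they did in 1613 of 24637 genes over the whole table. The Arid4b difference was -0.21 ± 0.20 (limma adjusted p = 1.00). On a second, dimmer Arid4b probe the groups overlapped, with a difference of -0.14 ± 0.25. The GW3965 arrays of Ggps1 lay between its DMSO arrays.

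The genes whose values over the 4 arrays were most like the mean profile of the 9 members, by root-mean-square distance in log2 among 14758 genes, were Slc1a2 (0.0146), Gstm2 (0.0149), Pik3r2 (0.0158), Ppp4r1l-ps (0.0174) and Bcam (0.0182). The members themselves lay at 0.0429 to 1.01 from that profile, and 24.8% of the compared genes lay within their median distance of 0.193. With Acat2 left out, an alternative chosen after seeing the data, the nearest were Ppp1r11, H2al1m, Itpkc, Flt3l and Hmox2.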
